A study of Homo sapiens with 6 samples.

Results

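The genes described here are 10 JmjC histone lysine demethylases: KDM2B, KDM3A, KDM3B, KDM4A, KDM4B, KDM4C, KDM5A, KDM5B, KDM5C and KDM6B. They were taken by symbol from a table of read counts that lists 21776 genes, and all 10 were found there. The table came from RNA sequencing of SCC25, an established human oral squamous cell carcinoma line labelled as wild type. Of its 6 libraries, 3 came from cells held for 12 h in hypoxia (1% O2 with CO2 and balancing nitrogen in a tri-gas incubator) and 3 from cells labelled normoxia for 12 h (air with CO2). All libraries came from this 1 line, and the labels do not say whether replicates were separate cultures, so p-values measure the spread between these libraries, which may be technical.

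JmjC demethylases remove methyl groups from lysines of histone tails. Each catalytic reaction uses molecular oxygen, 2-oxoglutarate and iron, and releases succinate and formaldehyde, so their activity depends on oxygen as well as on how much enzyme a cell makes. The families differ in the mark they erase. KDM2 enzymes act on lower methylation states of H3K36, KDM3 enzymes on mono- and dimethylated H3K9, KDM4 enzymes on trimethylated H3K9 and H3K36, KDM5 enzymes on di- and trimethylated H3K4, and KDM6 enzymes on H3K27. KDM3A and KDM4B are textbook target genes of hypoxia-inducible factor (HIF), the transcription factor that is stabilised when oxygen is low. RNA sequencing measures their transcripts, not their activity or the marks.

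Depth was similar across libraries, with 30186813, 36076088 and 32272716 counted reads for the hypoxia libraries (replicates 1, 2 and 3) and 37278703, 29637189 and 29981208 for the normoxia libraries (same order). The oxygen labels were compared with 6 HIF target genes, all of which were higher under hypoxia. NDRG1, the most abundant of them, measured 9007, 10510 and 10640 CPM in hypoxia and 163.3, 140.4 and 408.9 CPM in normoxia, where CPM is the count scaled to a common library total after TMM normalization. Normoxia replicate 3 stood above the other normoxia libraries for NDRG1 and also for CA9, a cell surface carbonic anhydrase, at 32.19, 27.29 and 67.67 CPM in normoxia, in the order of the replicates. Results that rest on this library are therefore given with and without it. The epithelial markers EPCAM, CDH1, KRT5, TP63 and KRT17 were present, whereas KRT14 had 1 count in a single library and 0 in the others. Under hypoxia CDH1 and KRT17 rose (log2-fold changes of 1.35 and 1.06), EPCAM and KRT5 fell (-0.35 and -0.18), and TP63 did not pass the test. The 13 markers of fibroblasts, leukocytes and endothelium analysed here had summed levels of 51.0, 51.8 and 52.7 CPM in hypoxia and 37.1, 35.7 and 40.6 CPM in normoxia. The most abundant was CD68, a lysosomal protein gene that is not limited to leukocytes, whereas PTPRC and CD3E had at most 2 counts in any library. Of the 4 such markers that passed the filter on low counts, COL1A1, a collagen gene, rose from 2.73 to 5.04 CPM in normoxia to 15.96 to 20.01 CPM in hypoxia, and the endothelial gene CDH5 rose from at most 0.744 CPM to at least 0.753 CPM (adjusted p = 0.025, and 0.0781 to 0.136 when hypoxia replicate 1 or 3 or normoxia replicate 1 or 2 was left out). CD68 and PDGFRB did not pass the test. Below the filter, PECAM1, VWF, KDR and LUM were higher in each hypoxia library than in any normoxia library, at 0.884 CPM or less, and DCN, PDGFRA and COL1A2 overlapped between the conditions. The part of other cells in the results was not tested beyond these values.

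Under hypoxic conditions, 6 of the 10 demethylase genes were higher and none was lower. KDM4B, KDM3A and KDM5B rose most, by log2-fold changes of 2.84, 2.65 and 2.09, followed by KDM4C with 1.16, KDM6B with 1.10 and KDM5A with 0.44. KDM2B, KDM3B, KDM4A and KDM5C did not pass the test. The test was edgeR's quasi-likelihood test across the 14255 genes that passed its filter on low counts, all 10 members among them, with Benjamini-Hochberg adjustment and a threshold of 0.05. The response to hypoxia was broad, and these counts must be read against it: 77.8% of all tested genes passed the test, 39.2% as higher and 38.5% as lower. The share of members called in either direction, 60.0%, was not above that 77.8%. The 6 called members were all higher, beside 39.2% of tested genes called higher, a difference that was not tested. The 5 members beyond a log2-fold change of 1 (KDM4B, KDM3A, KDM5B, KDM4C and KDM6B) stand beside 30.4% of tested genes called and beyond 1 in size. The median log2-fold change was 0.77 over the 10 members and 0.02 over all tested genes, whose middle lay between -0.54 and 0.76 (25th and 75th percentiles). In a bulk sample, more transcript per cell and a larger share of cells that make it cannot be told apart.

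**Figure D1:**
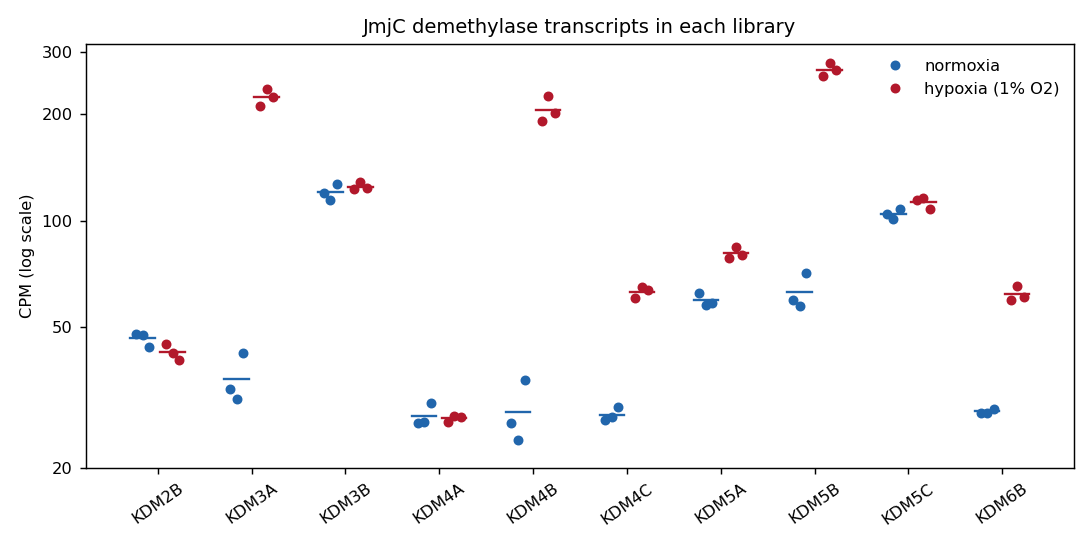
Level of each demethylase transcript in CPM on a log axis, with 1 point per library, normoxia in blue and hypoxia in red, and a line at each mean of 3 libraries. KDM3A, KDM4B and KDM5B sit between 24.1 and 71.2 CPM in normoxia and between 192 and 280 CPM in hypoxia. The points of KDM2B, KDM3B and KDM4A overlap between the conditions, in each case only through normoxia replicate 3.

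In 7 of the 10 genes the 3 hypoxia libraries did not overlap the 3 normoxia libraries in CPM, beside 80.5% of all tested genes. These were the 6 called genes and KDM5C. With 3 libraries against 3, an exact permutation test of a single gene cannot give a two-sided p below 0.1, which these 7 genes reached. The call of each of the 6 genes therefore rests on the edgeR fit, which shares its estimate of spread across genes.

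The promoter stretches that follow are shown because KDM3A, KDM4B, KDM4C and KDM5B were among the genes that rose, and KDM3B is the close relative of KDM3A that did not pass the test. The stretches are a selection, and the matches of the other members are described after them. Each is the 100 bases just before the annotated start, read 5′ to 3′ on the strand of the gene, from RefSeq on GRCh38.p14. Capitals mark ACGTG or GCGTG on either strand, the letters at the core of the sequence that HIF binds. The positions are chr2:86441271-86441370 (plus strand) for KDM3A, chr5:138352585-138352684 (plus) for KDM3B, chr19:4969013-4969112 (plus) for KDM4B, chr9:6757873-6757972 (plus) for KDM4C and chr1:202808422-202808521 (minus) for KDM5B. For KDM3A the first of its 2 annotated starts is shown.
KDM3A: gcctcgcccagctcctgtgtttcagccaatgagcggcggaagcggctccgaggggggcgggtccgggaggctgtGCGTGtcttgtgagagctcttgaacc
KDM3B: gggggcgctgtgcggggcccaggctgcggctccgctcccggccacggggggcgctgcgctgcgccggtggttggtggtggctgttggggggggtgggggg
KDM4B: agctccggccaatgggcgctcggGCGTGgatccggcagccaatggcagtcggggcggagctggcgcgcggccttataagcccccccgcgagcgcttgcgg
KDM4C: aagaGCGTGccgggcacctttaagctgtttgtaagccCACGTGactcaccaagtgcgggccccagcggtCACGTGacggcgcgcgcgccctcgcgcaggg
KDM5B: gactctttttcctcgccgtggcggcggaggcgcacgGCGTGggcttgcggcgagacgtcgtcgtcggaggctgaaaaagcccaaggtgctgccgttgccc

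KDM4C had 5 matches in this stretch, 4 of them from the palindrome CACGTG, which holds ACGTG on both strands and occurs at 63 and 31 bases before the start. KDM3A had GCGTG at 26 bases before the start, KDM4B at 77 and KDM5B at 64. The search covered windows of 250 bases before to 50 bases after each start, and 8 of the 10 members held a match in at least 1 window. In that wider window KDM4B also held ACGTG at 240 and GCGTG at 224 bases before its start. Matches were common, however, since 52.4% of the 27305 genes in the RefSeq table held either motif in at least 1 window, and 24.9% held ACGTG. Per window, these shares were 48.4% and 21.4% of 35116. All 6 genes that rose held a match, but so did KDM4A and KDM2B, which did not pass the test. KDM5A and KDM6B rose, but their only matches, at 154 and 231 bases before a start, lay outside a stretch of the length shown. KDM4A had GCGTG at 79 bases before its start, inside such a stretch. The matches of KDM2B lay outside it, at 120 bases or more before a start or just after one. No match was found in the windows of KDM3B and KDM5C. A match is a run of letters and not a measured binding site.

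Among the enzymes for mono- and dimethylated H3K9, the relatives KDM3A and KDM3B differed in their response. KDM3A measured 211.4, 235.7 and 224.1 CPM in hypoxia and 33.48, 31.31 and 42.39 CPM in normoxia, in the order of the replicates. The groups were far apart, and normoxia replicate 3 was the highest of the normoxia libraries. Its log2-fold change was 2.65 ± 0.087 (SE), a 6.27-fold increase with an adjusted p of 6.23e-14, and 2.77 without normoxia replicate 3. Only 4.85% of tested genes had a larger log2-fold change. KDM3B measured 122.7, 128.4 and 124.0 CPM in hypoxia and 120.1, 114.5 and 126.8 CPM in normoxia. These ranges overlapped only through normoxia replicate 3, and every hypoxia library lay above the other normoxia libraries. The log2-fold change of 0.05 ± 0.055 (95% confidence interval -0.06 to 0.17, adjusted p = 0.377) did not pass the test. Without normoxia replicate 3 it was 0.07 and did not pass either (adjusted p = 0.222). KDM3B passed as higher when genes under 10 counts in any library were removed (0.13, adjusted p = 0.0361), a setting that shifted the median gene by 0.0775.

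The KDM4 enzymes, which erase trimethylated H3K9 and H3K36, ranged from the largest increase among the members to a difference within the spread between replicates. KDM4B, the member with the largest change, measured 192.0, 225.2 and 202.0 CPM in hypoxia and 26.90, 24.08 and 35.56 CPM in normoxia. The groups were far apart, and the highest normoxia library was again replicate 3. The log2-fold change was 2.84 ± 0.10 (SE), or 7.16-fold, with an adjusted p of 2.01e-13, and 3.00 without normoxia replicate 3. KDM4C measured 60.65, 65.06 and 63.73 CPM in hypoxia and 27.33, 27.92 and 29.78 CPM in normoxia. Its libraries lay close together within each condition, and the level rose 2.23-fold (log2-fold change 1.16 ± 0.064, adjusted p = 2.65e-11). KDM4A measured 27.02, 28.07 and 27.92 CPM in hypoxia, inside the normoxia range of 26.82, 26.98 and 30.52 CPM. The upper end of that range was normoxia replicate 3, and every hypoxia library lay above the other normoxia libraries. The log2-fold change of KDM4A was -0.02 ± 0.076 (95% confidence interval -0.18 to 0.14, adjusted p = 0.804). Without normoxia replicate 3 it was 0.0244 (adjusted p = 0.788), and its sign also turned under some other settings. In GENCODE v29, 40.2% of the exon bases of KDM4A are shared with AL451062.3 on the same strand, which was not analysed here, and a further stretch with KDM4A-AS1 on the opposite strand, which had at most 47 counts.

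All 3 KDM5 genes, for H3K4 demethylases, had higher levels in every hypoxia library than in any normoxia library, although KDM5C did not pass the test. Such separation, in either direction, was seen for 80.5% of all tested genes. KDM5B, which is highly expressed in many carcinomas, measured 255.9, 279.7 and 267.8 CPM in hypoxia and 59.63, 57.59 and 71.22 CPM in normoxia. It rose 4.27-fold, with a log2-fold change of 2.09 ± 0.072 and an adjusted p of 1.02e-13, and of 2.17 without normoxia replicate 3. KDM5A, first known as a partner of the retinoblastoma protein, measured 78.40, 84.50 and 79.98 CPM in hypoxia and 62.69, 57.80 and 58.75 CPM in normoxia. This was a smaller rise of 1.35-fold (log2-fold change 0.44 ± 0.058, adjusted p = 2.24e-06), and 33.7% of tested genes had a larger log2-fold change. KDM5A shares 182 exon bases with CCDC77 on the opposite strand in GENCODE v29, and whether the counting used the strand is not given in the sources used here. KDM5C, an X-linked member of the family, measured 114.7, 116.2 and 108.1 CPM in hypoxia and 104.6, 101.5 and 108.0 CPM in normoxia. Hypoxia replicate 3 and normoxia replicate 3 nearly touched. Its log2-fold change of 0.11 ± 0.054 (95% confidence interval -0.0037 to 0.22) had an adjusted p of 0.0715, and it passed as higher when genes with fewer than 10 counts in any library were removed (adjusted p = 0.00406) and in limma fits of the FPKM. Those settings shifted the median gene upward by at least as much as KDM5C, by 0.0775 on the log2 scale in the first case.

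KDM6B, which erases H3K27 methylation and is known as an inducible gene in inflammation, measured 59.83, 65.33 and 60.87 CPM in hypoxia and 28.70, 28.73 and 29.41 CPM in normoxia. The normoxia libraries were almost equal, and the level rose 2.14-fold (log2-fold change 1.10 ± 0.063, adjusted p = 4.08e-11). KDM2B, which binds unmethylated CpG DNA and recruits a Polycomb complex, had the lowest log2-fold change of the members. It measured 44.77, 42.21 and 40.50 CPM in hypoxia and 47.99, 47.63 and 43.94 CPM in normoxia, so that hypoxia replicate 1 lay above normoxia replicate 3. The log2-fold change of -0.13 ± 0.065 (95% confidence interval -0.27 to 0.0054) had an adjusted p of 0.0734. It passed as lower without normoxia replicate 3 (-0.19, adjusted p = 0.0127) and without hypoxia replicate 1 (adjusted p = 0.0368). It also passed with no filter on low counts (adjusted p = 0.0306), a setting that shifted the median gene by the same amount, -0.0408 on the log2 scale. KDM2B shares 439 exon bases with RNF34 on the opposite strand in GENCODE v29.

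Levels of different genes were compared per length, as FPKM (fragments divided by gene length and by the library total). In normoxia the order was led by KDM5C with 15.9 ± 0.692 FPKM and KDM3B with 15.4 ± 0.958 FPKM (SD, n = 3), whose ranges overlapped. KDM3A (6.80 ± 1.16 FPKM), KDM4A (6.16 ± 0.484), KDM5B (5.67 ± 0.696), KDM2B (5.56 ± 0.277) and KDM5A (5.49 ± 0.323) followed, each overlapping the next in its range. KDM6B came below them with 4.16 ± 0.0965 FPKM, and KDM4B (2.81 ± 0.602 FPKM) and KDM4C (2.25 ± 0.106 FPKM), which overlapped each other, were the lowest. In hypoxia the order was different. KDM3A stood first with 44.0 ± 2.84 FPKM, then KDM5B with 24.95 ± 1.37 FPKM and KDM4B with 20.8 ± 1.96 FPKM, with no overlap between these neighbours. KDM5C (17.8 ± 0.869 FPKM) and KDM3B (16.5 ± 0.606 FPKM), first in normoxia, came next and again overlapped. KDM6B (9.21 ± 0.550 FPKM), KDM5A (7.69 ± 0.395 FPKM) and KDM4A (6.27 ± 0.1795 FPKM) were separate from their neighbours, and KDM2B (5.25 ± 0.280 FPKM) and KDM4C (5.18 ± 0.232 FPKM) overlapped at the bottom. Both orders rest on the gene lengths behind the FPKM, whose annotation is not given. By mean CPM, which does not divide by length, KDM5B (267.8) stood above KDM3A (223.7) in hypoxia. In normoxia KDM3A (35.73 CPM) then stood below KDM5B (62.81), KDM5A (59.75) and KDM2B (46.52).

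**Figure D2:**
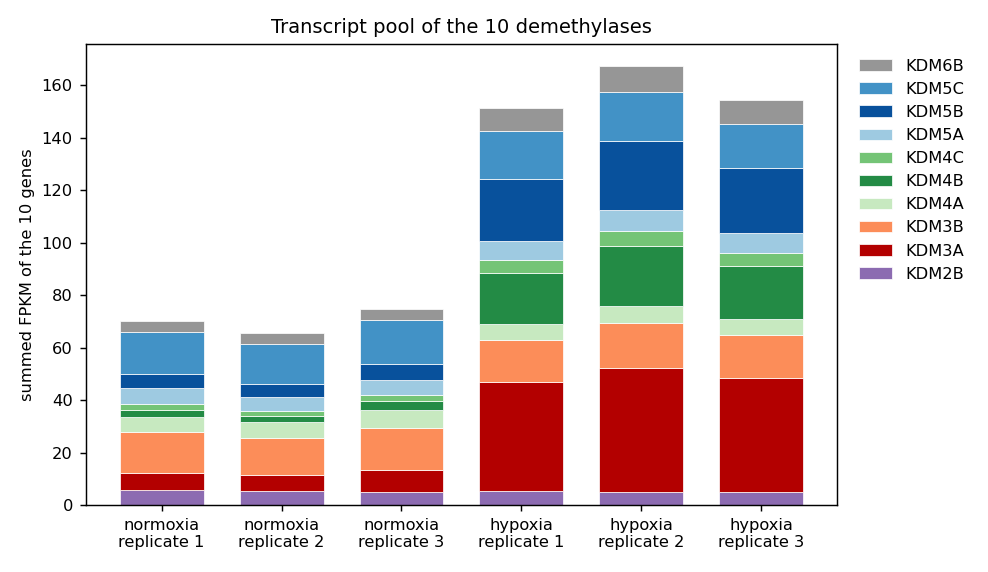
Summed FPKM of the 10 demethylase genes in each library, as stacked bars from 0 with 1 colour per gene and the KDM families in related colours. The sums are 65.6 to 74.8 FPKM in the 3 normoxia libraries and 151.2 to 167.3 FPKM in the 3 hypoxia libraries, and the segments of KDM3A, KDM4B and KDM5B widen most.

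Together the 10 transcripts summed to 151.2, 167.3 and 154.2 FPKM in hypoxia and 70.34, 65.60 and 74.76 FPKM in normoxia, a 2.24-fold difference of the means. The share of that sum held by KDM3A rose from 9.64% ± 1.03 to 27.9% ± 0.479 (SD, n = 3), that of KDM4B from 3.98% ± 0.595 to 13.2% ± 0.521, and that of KDM5B from 8.05% ± 0.493 to 15.8% ± 0.155. The shares of KDM3B and KDM5C fell from 21.9% ± 0.205 to 10.5% ± 0.189 and from 22.7% ± 0.573 to 11.3% ± 0.513, although neither transcript passed the test as changed. By family, the KDM3 genes went from 31.5% ± 0.903 to 38.4% ± 0.370 of the sum, the KDM4 genes from 15.96% ± 0.745 to 20.5% ± 0.404 and the KDM5 genes from 38.6% ± 0.597 to 32.0% ± 0.406. KDM6B held 5.93% ± 0.253 in normoxia and 5.84% ± 0.0427 in hypoxia. These shares weigh genes by length. As shares of summed CPM, the KDM3 genes held 28.7% in normoxia and 28.8% in hypoxia. Shares of transcripts do not measure shares of protein.

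Paralogs were set against each other within each library, over 9 pairs, as the log2 ratio of their FPKM. The FPKM ratio of KDM3A to KDM3B was 2.57, 2.73 and 2.69 in hypoxia and 0.415, 0.408 and 0.498 in normoxia, so the more abundant of the pair switched. The same switch was seen per length for KDM4B over KDM4A, with ratios of 3.16, 3.57 and 3.22 in hypoxia and 0.446, 0.397 and 0.518 in normoxia. Without division by length, the CPM ratios of this pair in normoxia were 1.00, 0.892 and 1.17, so the normoxia order rests on the gene lengths behind the FPKM. The more abundant gene switched as well for KDM5B over KDM5C, with 1.32, 1.43 and 1.47 against 0.337, 0.336 and 0.390. KDM5B over KDM5A was 3.20, 3.25 and 3.28 in hypoxia and 0.933, 0.977 and 1.19 in normoxia, close to equal levels. Per length KDM4C was below KDM4A in all 6 libraries, and the ratio was 0.814, 0.840 and 0.827 in hypoxia and 0.369, 0.375 and 0.354 in normoxia. This order too rests on the gene lengths, since the CPM ratios were 2.24, 2.32 and 2.28 in hypoxia and 1.02, 1.03 and 0.976 in normoxia. KDM6B over KDM6A, the X-linked H3K27 demethylase, was 2.15, 2.19 and 2.09 in hypoxia and 1.24, 1.26 and 1.33 in normoxia. The ratio was lower under hypoxia for KDM5C over KDM5A (log2 difference -0.33 ± 0.053, SE) and for KDM2B over KDM2A (-0.39 ± 0.063). In all 9 pairs the ratios of the conditions did not overlap, and each reached the smallest two-sided p that an exact permutation test allows here, 0.1 (0.1 after adjustment over the 9 pairs), so none could pass 0.05. With 80.5% of single genes not overlapping between the conditions in CPM, separate ratios are not a result about these pairs.

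The wider JmjC family gives a setting for these values. Of 20 other JmjC genes, 19 were analysed here and all 19 passed the filter on low counts. Among them 7 were higher, 7 were lower and 5 did not pass the test, with a median log2-fold change of -0.13, against 6, 0 and 4 of the 10 members. The share called, 73.7%, was near the 77.8% of all tested genes (39.2% higher and 38.5% lower), and the difference from the members was not tested. KDM7A, a demethylase for H3K9 and H3K27, had the largest increase, from 3.90, 2.62 and 3.31 CPM in normoxia to 12.3, 15.3 and 14.1 CPM in hypoxia (log2-fold change 2.07 ± 0.15, adjusted p = 8.89e-10). KDM2A, the most abundant of the list per length by the mean over all 6 libraries (JMJD8 was above it in normoxia), rose from 30.7 ± 0.439 to 37.9 ± 1.41 FPKM (log2-fold change 0.26 ± 0.050, adjusted p = 0.000174). KDM6A (0.35), JMJD1C (0.34) and HIF1AN (0.28), the gene of the asparagine hydroxylase that restrains HIF, also rose. RIOX1, a hydroxylase of a ribosomal protein, had the largest decrease and fell from 31.3, 35.2 and 30.3 CPM to 6.52, 5.22 and 7.49 CPM (log2-fold change -2.34 ± 0.12, adjusted p = 7.91e-12). Its relative RIOX2 fell by 1.32 and JMJD4 by 1.31 on the log2 scale. KDM8 fell by 0.95, and PHF8, which demethylates H3K9 and H4K20, fell by 0.44. Of the flavin-dependent demethylases, which act on H3K4, use oxygen through FAD and have no JmjC domain, KDM1B fell by 0.38 and KDM1A, at 50.3 ± 2.83 FPKM in hypoxia and 52.3 ± 0.67 FPKM in normoxia, did not pass the test (adjusted p = 0.0955).

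**Figure D3:**
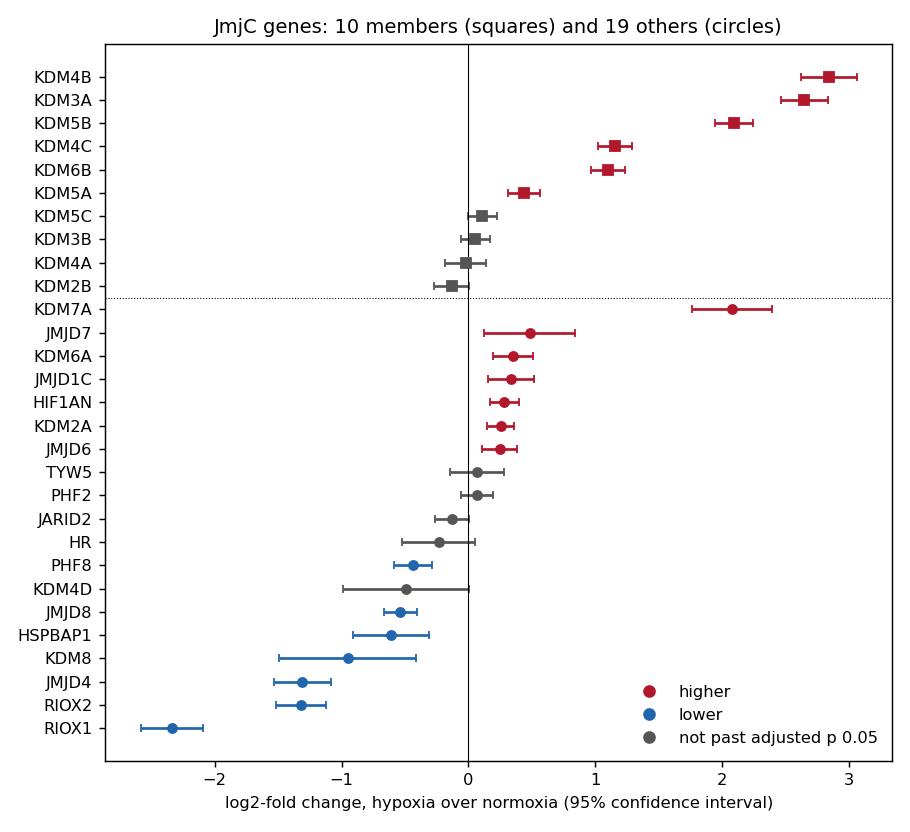
Log2-fold change of hypoxia over normoxia with its 95% confidence interval for the 10 members (squares, above the dotted line) and 19 other JmjC genes (circles), in red where higher, blue where lower and grey where the test was not passed. The members run from -0.13 to 2.84 and the other genes from -2.34 to 2.07.

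The marks these enzymes remove are added by methyltransferases, and 21 of their genes, partner subunits included, were described by mark. Of the 21, 6 were higher, 12 were lower and 3 did not pass the test, with a median log2-fold change of -0.34. The share called, 85.7%, stands beside 77.8% of all tested genes (39.2% higher and 38.5% lower), a difference that was not tested. Of the members for H3K9, KDM3A, KDM4B and KDM4C were higher, and KDM3B and KDM4A did not pass the test. The H3K9 methyltransferase genes SUV39H1 and SUV39H2 fell, with log2-fold changes of -1.50 and -1.20. SUV39H1, which trimethylates H3K9 in heterochromatin, went from 41.8, 44.4 and 36.8 CPM in normoxia to 17.0, 13.3 and 13.2 CPM in hypoxia (adjusted p = 3.12e-10). EHMT1 fell by 0.35, SETDB1 rose by 0.32, and EHMT2, the most abundant of the 21 per length, had a log2-fold change of 0.10 that did not pass the test (adjusted p = 0.0987). For H3K27, KDM6B was higher, and the Polycomb genes EED, SUZ12 and EZH2 fell by 0.85, 0.65 and 0.59. EZH1, the second catalytic subunit of that complex, rose from 16.7, 17.8 and 18.7 CPM to 33.1, 34.8 and 34.1 CPM (log2-fold change 0.94 ± 0.077, adjusted p = 4.78e-09). For H3K4, KDM5A and KDM5B were higher, KDM1B was lower, and KDM5C and KDM1A did not pass the test. The H3K4 methyltransferase genes moved in both directions. KMT2C had the largest increase of the 21 genes (1.32 ± 0.077, adjusted p = 6.03e-11) and KMT2A rose by 0.43, whereas SETD1B, SETD1A and KMT2D fell by 0.82, 0.66 and 0.34. KMT2B fell by 0.15, a call that was lost when 10 counts were required in every library (adjusted p = 0.243) and without hypoxia replicate 3 or normoxia replicate 1. Of the members for H3K36, KDM4B and KDM4C were higher, and KDM2B and KDM4A did not pass the test. Among the H3K36 methyltransferase genes, NSD3 and ASH1L rose by 0.57 and 0.33, and NSD2 and NSD1 fell by 0.53 and 0.28. SETD2, which makes the trimethyl form, had a log2-fold change of -0.11 that did not pass the test (adjusted p = 0.0745).

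**Figure D4:**
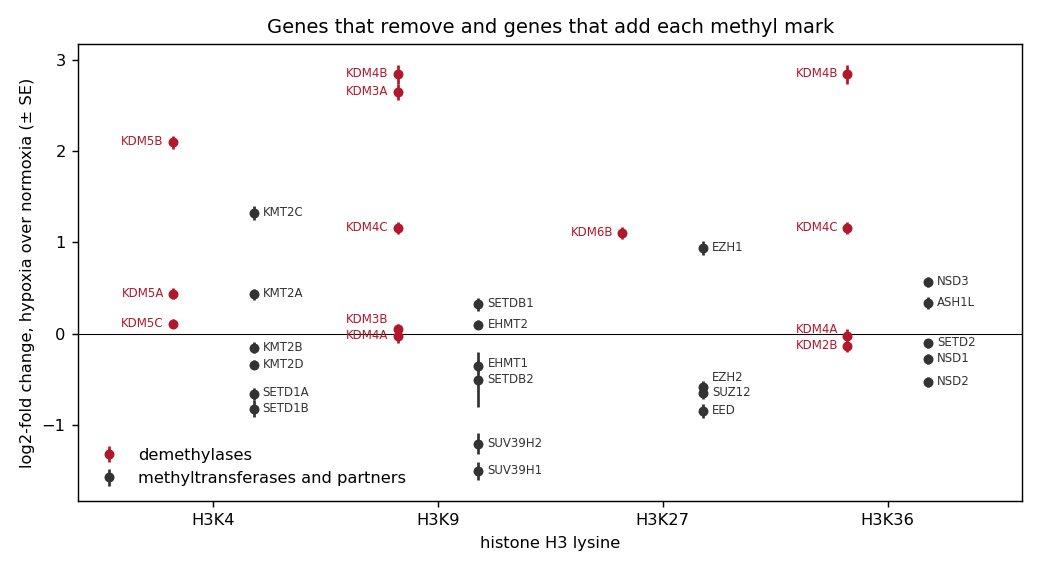
Log2-fold change of hypoxia over normoxia (± SE) of the demethylase genes (red) and of the methyltransferase genes and their partners (black), by the histone H3 lysine they act on. KDM4 genes appear under both H3K9 and H3K36, and SUV39H1 at -1.50 and KDM4B at 2.84 are the ends of the H3K9 column.

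JmjC enzymes consume 2-oxoglutarate and are inhibited by succinate, fumarate and 2-hydroxyglutarate, so 14 genes that make or use these metabolites were described as well. Of these, 4 were higher, 9 were lower and 1 did not pass the test. The share called was 92.9%, beside 77.8% of all tested genes (39.2% higher and 38.5% lower), and the difference was not tested. IDH3A, the catalytic subunit of a mitochondrial enzyme that makes 2-oxoglutarate, fell from 140.3, 145.3 and 120.1 CPM in normoxia to 40.8, 36.8 and 38.7 CPM in hypoxia (log2-fold change -1.80 ± 0.071, adjusted p = 5.27e-13). FH, which consumes fumarate, fell by 1.10, OGDH, which consumes 2-oxoglutarate, fell by 0.60, and SDHB, a subunit of the enzyme that consumes succinate and the most abundant of the list per length, fell by 0.45. Of the other subunits of that enzyme, SDHD and SDHA fell by 0.37 and 0.35, whereas SDHC rose by 0.27. Of the 5 genes for enzymes that make 2-oxoglutarate, 2 were higher, 2 were lower and 1 did not pass the test. Those that rose were IDH1, whose enzyme is cytosolic, by 0.71, and IDH2, whose enzyme is mitochondrial, by 0.17 (edgeR adjusted p = 0.00956). The gene of the enzyme that clears the D form of 2-hydroxyglutarate, D2HGDH, rose from 10.5, 8.70 and 11.2 CPM to 33.7, 32.3 and 34.5 CPM (log2-fold change 1.72 ± 0.095, adjusted p = 2.73e-11). The metabolites themselves were not measured.

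The genes whose pattern over the 6 libraries was most like that of KDM4B were NAV1, PLOD2, SEMA4B, AHNAK2 and SNX33. Likeness was the root mean square difference of log2 CPM, each gene centred on its own mean, and it ran from 0.033 for NAV1 to 0.063 for SNX33. Their log2-fold changes were 2.91, 2.87, 2.75, 2.79 and 2.85. With 2 conditions such likeness is common: 1192 of 14254 tested genes had a correlation with KDM4B above 0.99 over the same libraries.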

How the data were processed

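The authors deposited whole-number read counts per gene, not normalized, and FPKM for the same genes. For 21775 of 21776 genes the FPKM followed the count over the library total, with a constant length per gene, within a relative error of 0.001. That length was derived from the same counts and FPKM, so the gene lengths themselves were not checked. The aligner, counting tool, annotation and use of strand are not given in the sources used here. The submitters' processing notes name the mouse builds GRCm38 and mm10, although the tables hold human gene symbols, so coordinates come from RefSeq (GRCh38.p14) and exon overlaps from GENCODE v29. The labels name SCC25, and a legend of the study names SCC9.

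The tests ran in R 4.3.3. The count test was the quasi-likelihood F test of edgeR 4.0.16 (TMM, filterByExpr, glmQLFit, condition as the only term) over all genes that passed the filter, with p-values adjusted over all of them. Standard errors were derived from each log2-fold change and its F statistic. CPM were set by TMM-adjusted totals (prior count 2 for log2 CPM). The common biological coefficient of variation was 0.0685. Replicates differed by more than sampling noise (chi-square per gene 5.11 to 11.5), so each library counted as 1 replicate. Precision covers the spread between libraries and counting error. Levels and ratios used the deposited FPKM. Alternatives were DESeq2 1.42.0, its size factors in edgeR, other filters, an added minimum log2-fold change of 1, limma 3.58.1 on log2(FPKM + 1) or log2(FPKM + 0.1) with a mean FPKM of at least 1 or no filter, the replicate number as a block, and each library left out. Tests were checked on simulated data.

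The members and the gene lists were chosen with earlier results of these data known. Named were all members, any listed gene, in each list at least the largest increase, the largest decrease and the most abundant gene by FPKM, and the 5 genes most like the member with the largest change. KDM4E was not analysed here. Some items are not reported here. The deposited GO and pathway columns and other annotation were not used for tests.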

Additional observations from a re-analysis of the deposited data

How the results depend on the processing

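The 6 genes called higher kept their direction and call in all 14 refits, with log2-fold changes of 2.54 to 2.77 for KDM3A, 2.52 to 3.00 for KDM4B, 1.97 to 2.18 for KDM5B, 0.93 to 1.23 for KDM4C, 0.98 to 1.18 for KDM6B and 0.40 to 0.52 for KDM5A. With an added minimum log2-fold change of 1, 5 members were called, without KDM5A, and the number of genes called fell from 11090 to 4338. It ran from 10669 to 11390 when single libraries were left out. With the replicate block, 10875 genes and the same 6 members were called. Same-numbered libraries did not deviate together (correlations 0.0175, -0.069 and 0.00122, and not every library matched its own number best). With so few libraries per condition these correlations cannot decide whether same-numbered libraries were paired. The labels do not say what a replicate number marks. Other filters and units also moved the median gene: the median shift of the log2-fold change was 0.0775 with 10 counts required in every library, -0.0408 with no filter and 0.0441 to 0.05 in the limma fits of the FPKM. The changes of sign or call of the 4 other members under these settings went with moves of about that size or less. KDM2B passed as lower with no filter on low counts (-0.17), and ran from -0.19 to -0.10 with single libraries left out, for which the cause was not tested. With 10 counts required, KDM3B (0.13) and KDM5C (0.19) passed as higher and KDM4A turned to 0.056. In limma fits of the FPKM, KDM5C passed with 0.15 on log2(FPKM + 1), 0.16 with the smaller pseudocount and 0.15 with no filter, and KDM4A was 0.0227, 0.0262 and 0.0227. With single libraries left out KDM4A ran from -0.069 to 0.0244. Without a filter, 2 flavin-dependent genes were called, not 1, and 5 markers of other cell types, not 2. With 10 counts required, 1 such marker was called, and leaving out single libraries gave 1 to 2 for each of these lists. Of the named genes that had not passed, KDM1A (adjusted p = 0.0232) and SETD2 (0.0349) passed as lower with no filter, and EHMT2 (0.00579) passed as higher with 10 counts required, with moves of the size of the median shift. KDM1A also passed without hypoxia replicate 1 (0.0274) and SETD2 without normoxia replicate 2 (0.0425), where the median shift was -0.00938 and -0.0102. As shares of summed CPM, which do not divide by length, the KDM3 genes held 28.8% in hypoxia and 28.7% in normoxia, the KDM4 genes 24.5% and 15.65%, the KDM5 genes 38.1% and 41.8%, and KDM6B 5.12% and 5.33%.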

Other observations

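KDM2B works within a non-canonical Polycomb complex, and 9 partner genes of that complex were described: 4 were higher, 2 were lower and 3 did not pass the test, with a median log2-fold change of -0.0048. The share called, 66.7%, was not above the 77.8% of all tested genes (39.2% higher and 38.5% lower). BCORL1, a corepressor, had the largest increase, from 9.11, 10.6 and 9.46 CPM in normoxia to 28.0, 29.5 and 31.3 CPM in hypoxia (log2-fold change 1.61 ± 0.093, edgeR adjusted p = 4.83e-11). RYBP, BCOR and RNF2 rose by 0.90, 0.76 and 0.45 on the log2 scale. USP7, a deubiquitinase and the most abundant of the partners per length, fell from 263.1, 269.6 and 241.9 CPM to 167.9, 161.1 and 165.6 CPM (log2-fold change -0.65 ± 0.054, adjusted p = 6.56e-09), and SKP1 fell by 0.37. PCGF1, the subunit that sets this complex apart from other Polycomb complexes, measured 14.12, 12.34 and 14.02 CPM in hypoxia and 15.5, 14.9 and 15.1 CPM in normoxia, with a log2-fold change of -0.17 that did not pass the test (adjusted p = 0.123).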
